A study of Homo sapiens with 12 samples.

Results

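The miRNAs miR-182, miR-183, miR-96, miR-31 and miR-210 were followed in differentiated Mono Mac 6 (MM6) cells, a human monocytic line, with and without 5-lipoxygenase (5-LO). The study asked whether 5-LO, an enzyme of leukotriene synthesis that binds Dicer, changes the miRNA profile of these cells. Small RNA was sequenced from wild-type and 5-LOΔ MM6 cells (labelled ALOX-5 -/-), each without and with LPS, the endotoxin of Gram-negative bacteria, which monocytes sense through TLR4. All 4 groups were matured for 72 h, according to the labels, with calcitriol at 50 nM and TGF-β at 1 ng/mL, and the LPS groups also received 1 µg/mL LPS for 6 h. Each group held 3 libraries. The knockout cells were single-cell clones made with a CRISPR/Cas9 lentivirus and puromycin selection, and the labels do not say which clone gave which library. No transduction or cloning is described for the wild-type cells, so genotype and these steps cannot be told apart. ALOX5 mRNA is not measured by small RNA sequencing, so the genotype could not be checked here.

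All arms of these 5 miRNAs that a deposited table lists as mature miRNA are described. They were chosen by the means with LPS, because miR-182-5p, miR-31-5p and miR-210 were higher there by over 1 log2 unit in 5-LOΔ than in wild-type cells. The tables list 5 such arms among 314 mature miRNA names: miR-182-5p, miR-183-5p, miR-31-5p, miR-31-3p and miR-210. No arm of miR-96 is listed in the tables used here. miR-31-3p is listed only in the table with LPS, and the other 4 arms are in both tables.

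A mature miRNA is cut from a hairpin precursor by Dicer and guides Argonaute to mRNAs that pair with its seed, the bases at positions 2 to 8. miR-182, miR-96 and miR-183 are made from 1 conserved cluster, best known from sensory cells and epithelial tumours. miR-31 lies in the 9p21 region near tumour suppressor genes and has been studied mostly in epithelial cancer and T cells. miR-210 is the best-known miRNA induced by hypoxia through HIF.

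The mature sequences are shown because they tell which members can share targets and which reads could be mistaken for another member. They are RefSeq entries (GRCh38.p14), written 5′ to 3′ with the seed in capitals, and RefSeq gave a sequence for 4 of the 5 listed arms. miR-96-5p is added for the cluster, and miR-210 is the older name of the arm now called miR-210-3p.
miR-182-5p: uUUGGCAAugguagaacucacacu
miR-96-5p: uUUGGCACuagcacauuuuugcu
miR-183-5p: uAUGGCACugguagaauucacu
miR-31-5p: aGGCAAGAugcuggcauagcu
miR-210: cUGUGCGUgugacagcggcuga
The seeds of the cluster are nearly alike. Counted from the 5′ end, the seed of miR-96-5p differs from that of miR-182-5p by A8C alone, and the seed of miR-183-5p differs from that of miR-96-5p by U2A alone. Between miR-182-5p and miR-183-5p the seed differs by U2A and A8C, while 18 of 22 aligned bases are equal over the whole length. The seeds of miR-31-5p and miR-210 match that of miR-182-5p at 1 and 3 of 7 positions. Of the 314 mature names, 263 were matched to a RefSeq sequence, and none beyond the members shared bases 2 to 7 with one of these 5 sequences.

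In GRCh37, the build of the study (hg19), all these hairpins lie on the reverse strand. MIR182 is on chromosome 7 from 129410223 to 129410332, MIR96 from 129414532 to 129414609 and MIR183 from 129414745 to 129414854. The cluster spans 4632 bp, with 4199 bp between MIR182 and MIR96 and 135 bp between MIR96 and MIR183. The 3 hairpins lie in an intron of 1 of the 5 annotated transcripts of an unnamed lncRNA gene (129402900 to 129420060). MIR31 is on chromosome 9 from 21512114 to 21512184, in an intron of the lncRNA gene MIR31HG in the 21 of its 27 transcripts that span it. MIR210 is on chromosome 11 from 568089 to 568198, in an intron of MIR210HG in 9 of 9 transcripts. Each of the mature sequences above occurs once in its GRCh37 hairpin.

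The deposited values are means of normalized counts, 1 per genotype and table. Since every library contributes whole reads divided by a size factor, only some values are possible for a mean of 3 libraries, and the reads of each library were recovered from this. Every member's mean had exactly 1 solution in every group. The means above 10 (miR-182-5p in both knockout groups and miR-31-5p in knockout cells with LPS) lie where whole-read solutions are dense, so the split of their reads between libraries rests more on the size factors found from lower means. Size factors ran from 0.665 to 1.72 over the 12 libraries, and the means of a group summed to between 9599778 and 12035201 normalized counts over all entries but precursors. Mature miRNAs held between 0.942% and 1.10% of this sum. In recovered libraries, mature miRNAs with a mean of up to 10 had exactly 1 read in 41 cases and exactly 2 reads in 346, so a library at 0 may have held a single read that was not listed. Library values are ordered below by falling size factor, an order that pairs nothing between groups. The tables with and without LPS were normalized separately. All 4 groups held miR-223, miR-142, miR-155, miR-146a and miR-21 (7 of 7 arms). Their summed means were 4519 and 6625 normalized counts in wild-type and knockout cells without LPS and 5096 and 6083 with LPS. None differed by over 1 log2 unit between genotypes within a table. Over all mature miRNAs above 0 in both genotypes, 12.1% were higher and 11.2% lower in knockout cells by over 1 without LPS, and 11.1% and 7.89% with LPS. With 7 arms this is near the background, and nothing is read from it. The muscle, liver, erythroid and lymphoid marker miRNAs (8 names) were not listed.

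miR-31-5p was listed with reads in 5-LOΔ but not in wild-type MM6 cells. Both wild-type groups listed it at 0, in 6 of 6 libraries, whereas all 6 knockout libraries held it. Without LPS, the knockout libraries had 24, 4 and 5 reads, or 18.0, 4.23 and 6.90 normalized counts, around a deposited mean of 9.70. With LPS, they had 22, 13 and 20 reads, or 16.9, 15.6 and 24.6 normalized counts, around a mean of 19.0. Knockout and wild-type libraries did not overlap in either table. With LPS, such a separation of knockout above wild type was found for 3 of 154 mature miRNAs with recovered reads (1.95%), and the reverse also for 3 (1.95%). Since miR-31-5p was chosen on its means with LPS, nothing is read from its place among these 3.

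**Figure D1:**
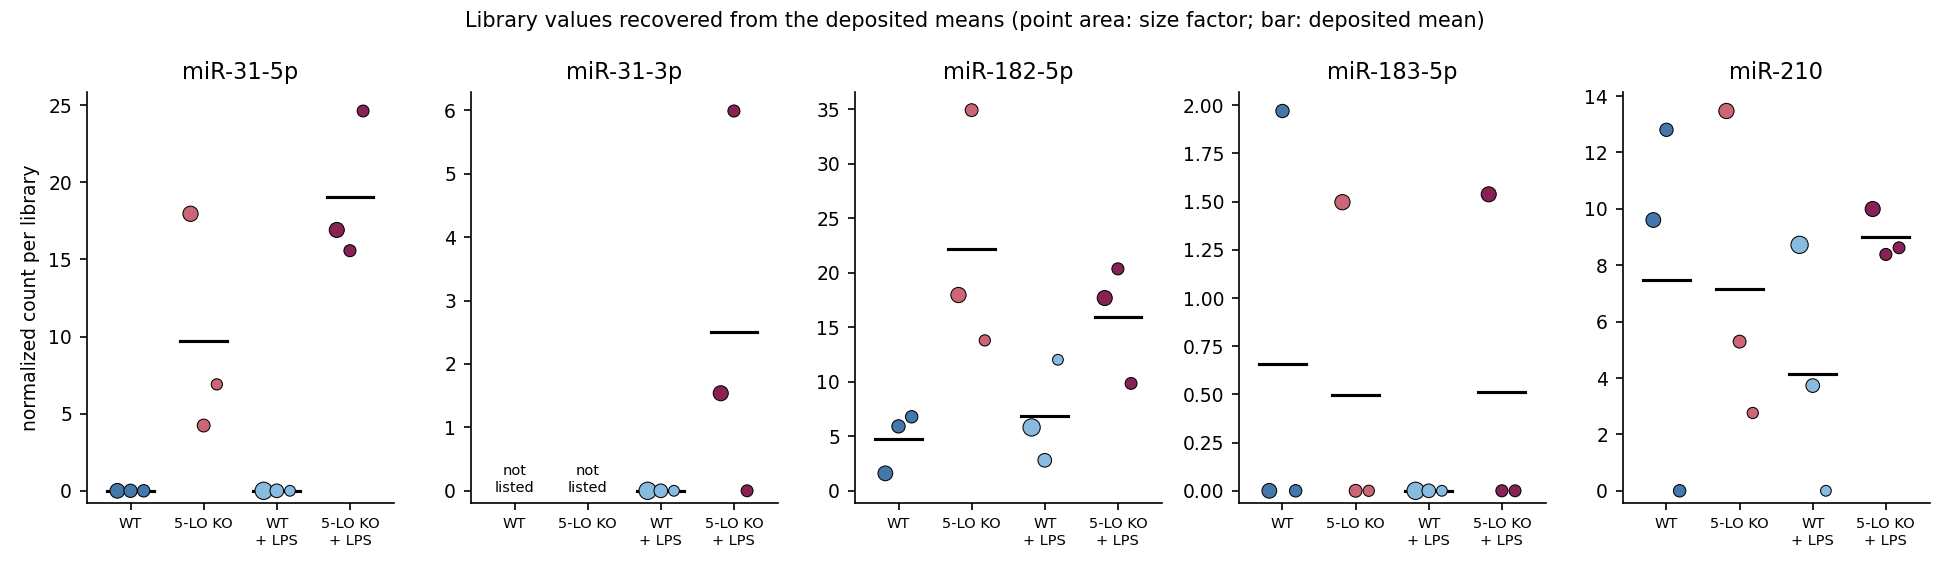
Normalized counts of each listed arm in the 3 libraries of each group (points, with area proportional to the size factor) and the deposited mean (bar). miR-31-5p is at 0 in all 6 wild-type libraries and between 4.23 and 24.6 in the 6 knockout libraries.

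A count of 0 over the 3 wild-type libraries allows up to 3 reads if every read was listed. Single reads that were not listed would raise this limit and lower the folds below, by an amount that was not computed. As means, these limits were 0.953 normalized counts without LPS and 0.868 with LPS. Against these limits miR-31-5p was at least 10.2-fold higher in knockout cells without LPS, the comparison that did not choose it. With LPS it was at least 21.9-fold higher, which restates the choice. These bounds take the knockout means as measured, and with the lower 95% exact Poisson limit of the 33 and 55 knockout reads they were 7.01-fold and 16.5-fold. A two-sided exact permutation test of the libraries without LPS gave p = 0.1 (n = 3 per group). This is the smallest value that this test can give for 3 against 3. On the log2 scale this lower bound was 3.35. It was 2.55 when the knockout library with 24 reads (72.7% of the reads of miR-31-5p in this group) was left out.

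How usual such a pattern was can be read from the other miRNAs. Of 285 mature miRNAs in the table without LPS, 43 (15.1%) were listed at 0 in wild-type and above 0 in knockout cells, and the reverse held for 36 (12.6%). The median knockout mean of the 43 was 0.499 normalized counts. Ranked after the values were seen, miR-31-5p had the highest knockout mean of the 43, and the next was miR-671-3p at 3.62. With LPS, 29 of 262 (11.1%) showed the pattern and 43 (16.4%) its reverse. The mean of miR-31-5p with LPS chose it, so its place among the 29 is not read.

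Values of both tables can also be set side by side, though for miR-31-5p the values with LPS were fixed by its choice. Of the 233 mature miRNAs present in both tables, 7 were at 0 in both wild-type groups and above 0 in both knockout groups. Besides miR-31-5p these were miR-145-5p, miR-147b, miR-320c, miR-503-5p, miR-505-3p and miR-942, whose knockout means lay between 0.249 and 1.06 without LPS and between 0.513 and 1.62 with LPS. The mirror pattern held for 8 miRNAs, among them miR-200c-3p, an epithelial miRNA, at 1.19 and 1.00 normalized counts in wild-type cells without and with LPS. Over all RNA classes, 21 entries were at 0 in both wild-type groups and above 0 in both knockout groups. Apart from miR-31-5p and its precursor, none of the other 19 exceeded 2.09 normalized counts in either knockout group.

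**Figure D2:**
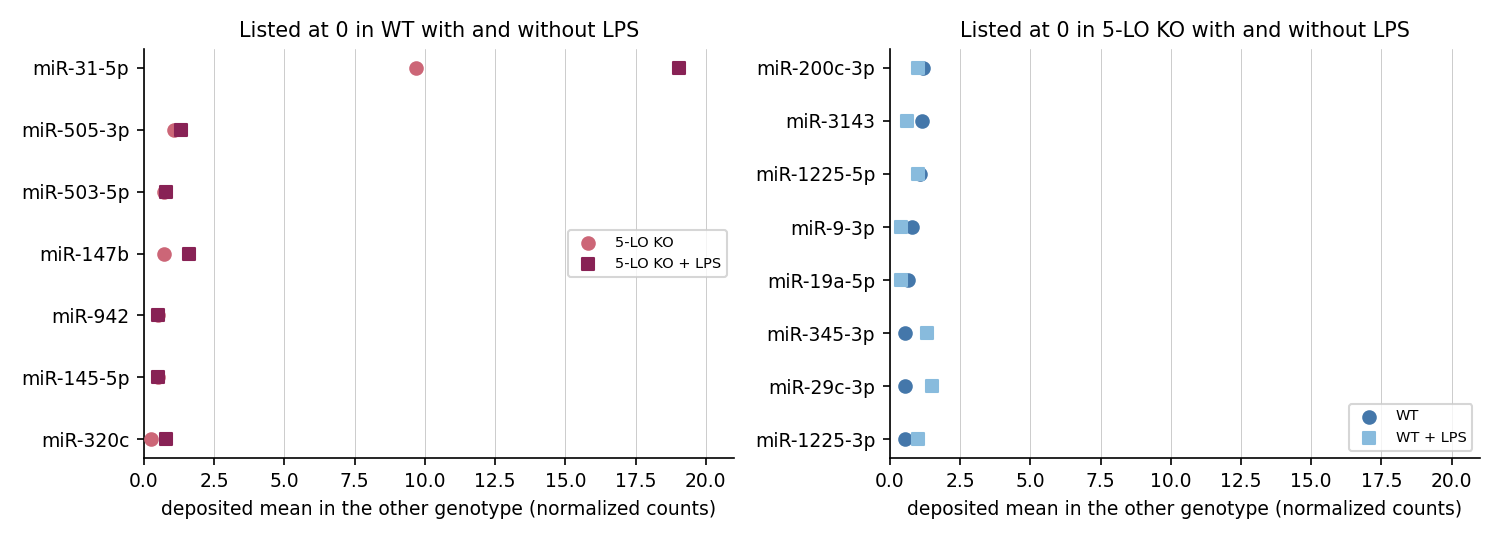
Deposited means of the mature miRNAs listed at 0 in both wild-type groups (left, 7 miRNAs) or in both knockout groups (right, 8 miRNAs), without LPS (circles) and with LPS (squares), in normalized counts of the other genotype. miR-31-5p reaches 9.70 and 19.0, and the other 14 miRNAs stay below 2.

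The other arm of the hairpin, miR-31-3p, was far lower. It had 2, 5 and 0 reads in the knockout libraries with LPS, a mean of 2.51 normalized counts, and was at 0 in the 3 wild-type libraries. Unlisted single reads would raise the limit for 0. If every read was listed, miR-31-3p was at least 2.89-fold higher (1.16-fold with the lower Poisson limit of its 7 reads). Leaving out single libraries moved this bound, 1.53 on the log2 scale, to 0.54 (without the deepest wild-type library, of size factor 1.72) up to 2.12 (without the knockout library at 0). Without the library of 5 reads only 2 reads remained, under the limit of 3, and no bound could be given. The groups overlapped because 1 knockout library was also at 0. The precursor entry mir-31, which counts reads on the hairpin, equalled the 5p arm without LPS, with 33 reads. With LPS it held 58 reads, 4 fewer than both arms together, so the arm and precursor entries were not counted from exactly the same reads.

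Within knockout cells miR-31-5p was at a higher mean with LPS than without. The mean with LPS is one of the values that chose it, which favours a high ratio, so this is a description. The log2 ratio was 0.97 with a 95% counting interval from 0.31 to 1.64, which covers the sampling of reads only. The libraries overlapped, since the highest one without LPS (18.0) exceeded the lowest ones with LPS (15.6 and 16.9). Across the separately normalized tables, the median mature miRNA had a log2 ratio of -0.27, and scaling the groups gave miR-31-5p a ratio of 1.01 (equal mature sums), 1.23 (equal sums of all entries but precursors) or 1.25 (median ratio of 0). Leaving out the highest library without LPS raised the ratio of miR-31-5p to 1.77, and leaving out others gave values down to 0.61. In wild-type cells it was at 0 with and without LPS, so no change could be seen.

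miR-182-5p, which like miR-183-5p is a listed arm of the sensory cluster, was 4.66-fold higher in 5-LOΔ than in wild-type cells without LPS. The wild-type libraries held 2, 6 and 6 reads, or 1.60, 5.91 and 6.79 normalized counts, around a mean of 4.77. The knockout libraries held 24, 33 and 10 reads, or 18.0, 34.9 and 13.8 normalized counts, around a mean of 22.2. Every knockout library was above every wild-type library.

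The log2 ratio of miR-182-5p without LPS was 2.22 (counting SE 0.42, 95% counting interval 1.40 to 3.04). The exact permutation test again gave 0.1 as the smallest possible two-sided p with n = 3 per group. Leaving out each library in turn kept the ratio between 1.74 and 2.57. Of the 206 mature miRNAs above 0 in both genotypes, it had the rank 3 from the highest, and 25 (12.1%) were higher and 23 (11.2%) lower by over 1 log2 unit. Among the 60 whose means averaged 3 to 30, a range that holds miR-182-5p and miR-210 but not miR-183-5p, 9 (15.0%) were higher and 5 (8.33%) lower by over 1. Of the members above 0 in both genotypes without LPS, 1 of 3 passed 1 log2 unit. Their median log2 ratio was -0.06, against 0.10 over all 206.

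Complete separation of the libraries was less usual than a change of 1 log2 unit. Of 191 mature miRNAs whose reads could be recovered in 1 way in both groups without LPS, 11 (5.76%) had all knockout above all wild-type libraries, and 6 (3.14%) the reverse. Of the 4 members in this table, miR-182-5p and miR-31-5p were among the 11, and miR-183-5p and miR-210 overlapped.

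**Figure D3:**
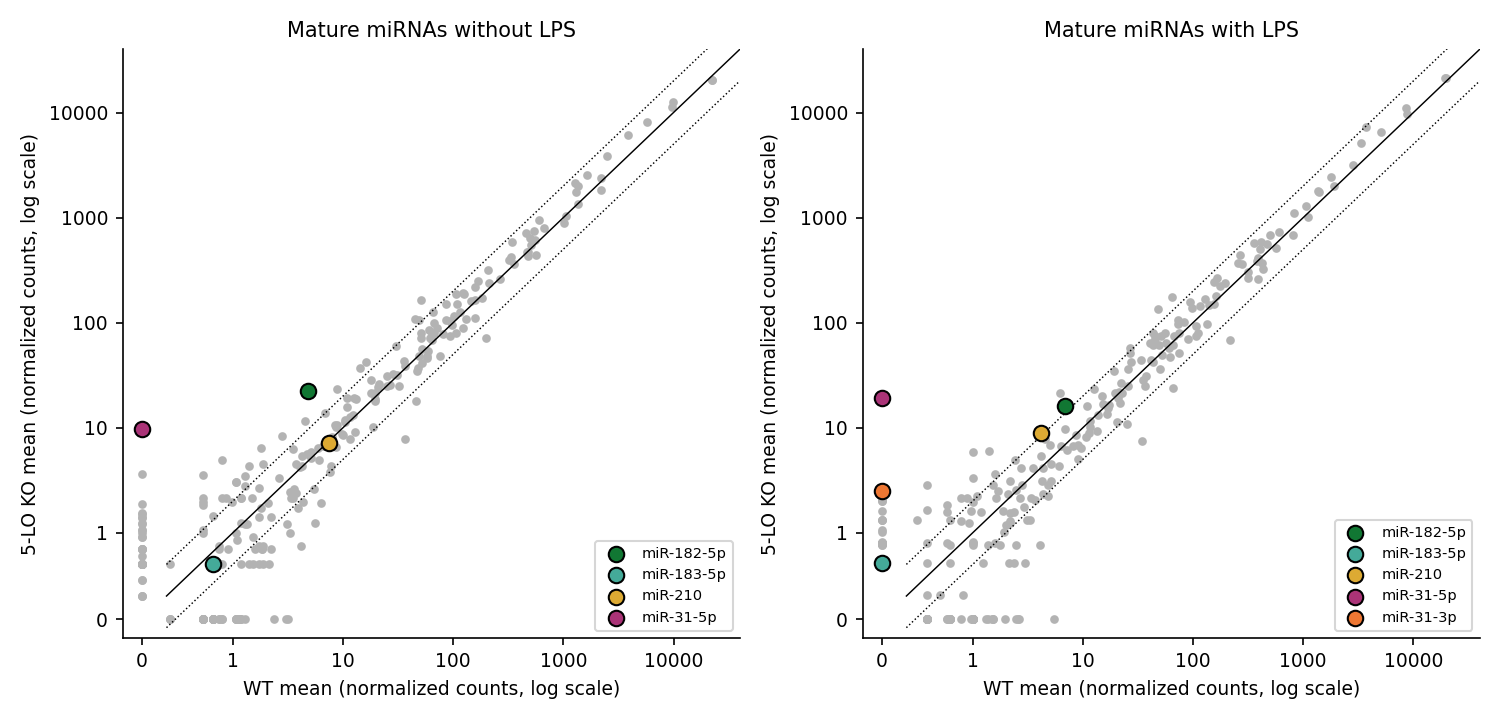
Deposited means of all mature miRNAs in wild-type (x axis) and 5-LOΔ cells (y axis), in normalized counts on log axes with values of 0 drawn at the axis, without LPS (left) and with LPS (right). Solid and dotted lines mark equal means and a difference of 1 log2 unit; miR-31-5p is drawn at 0 for wild type with knockout means of 9.70 and 19.0, and miR-182-5p lies above the line by 2.22 without and 1.21 with LPS; the values with LPS chose the members.

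With LPS the separation of miR-182-5p was smaller. The wild-type libraries held 10, 3 and 8 reads, or 5.82, 2.80 and 12.0 normalized counts, around a mean of 6.88. The knockout libraries held 23, 17 and 8 reads, or 17.7, 20.4 and 9.85 normalized counts, around a mean of 16.0. The groups overlapped, since the wild-type library of the smallest size factor (12.0) lay above the lowest knockout library. This comparison chose the members, so its log2 ratio of 1.21 (95% counting interval 0.46 to 1.97) is a description. When groups were scaled to equal mature miRNA sums it was 0.97, under the limit of 1 used for the choice. Leaving out single libraries gave 0.84 (without the wild-type library of 2.80) to 1.89 (without that of 12.0). Near that limit, miR-3613-5p (1.04) was just inside and miR-424-5p (0.97) just outside among 190 mature miRNAs with a finite ratio, of which 21 (11.1%) were higher and 15 (7.89%) lower by over 1. Among the 51 averaging 3 to 30, these were 6 (11.8%) and 3 (5.88%). As chosen, both members with a finite ratio were among the higher ones, and their median was 1.17 against 0.10 over all 190.

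The effect of the knockout on miR-182-5p was lower with LPS than without by 1.01 on the log2 scale as a point value, with a counting interval of the difference from -2.12 to 0.11 that includes 0. The means with LPS chose the members, so this difference and the ratios of LPS to no LPS are descriptions. Within each genotype, the counting interval of the change with LPS included 0. In wild-type cells the log2 ratio of LPS to no LPS was 0.53 (-0.44 to 1.5), and in knockout cells it was -0.48 (-1.03 to 0.08). Single libraries turned both directions, to -0.15 in wild-type cells without the LPS library of 12.0 and to 0.01 in knockout cells without the library of 34.9, and the difference of effects was -0.33 without the wild-type LPS library of 12.0. From lowest to highest the means ran from wild type (4.77) over wild type with LPS (6.88) and knockout with LPS (16.0) to knockout (22.2). Libraries overlapped between each pair of neighbours in this order.

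miR-183-5p, from the same cluster, was close to the limit of detection. It had 2 reads in 1 library in wild-type, knockout and knockout cells with LPS, and none in wild-type cells with LPS. Without LPS the ratio of knockout to wild type in reads per summed size factor was 1.05, with an exact 95% interval from 0.0759 to 14.4, so a change of the size of miR-182-5p was not detectable at this depth. Of the reads of both miRNAs together, miR-183-5p made up 12.5% in wild-type cells (2 of 16, exact binomial 95% interval 1.55% to 38.3%) and 2.90% in knockout cells (2 of 69, 0.353% to 10.1%). These intervals overlap. With LPS it was 0 of 21 reads in wild-type cells, which allows up to 16.1%, and 4.0% in knockout cells (2 of 50, 0.488% to 13.7%). The tables show no molecular identifiers, and all intervals cover counting error only. The precursor entries mir-182 and mir-183 held exactly the reads of these arms in all 4 groups, and so add no independent count.

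miR-210, the hypoxia miRNA, did not separate the genotypes without LPS. The wild-type libraries held 12, 13 and 0 reads, or 9.60, 12.8 and 0 normalized counts, and the knockout libraries 18, 5 and 2 reads, or 13.5, 5.29 and 2.76. The means were 7.47 and 7.17, a log2 ratio of -0.06 with a 95% counting interval from -0.92 to 0.80, and the libraries overlapped (exact permutation p = 1, two-sided, n = 3 per group). Leaving out single libraries moved the ratio between -0.89 and 0.58, to the lower end without the knockout library of 13.5 and to the upper end without the wild-type library of 12.8.

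With LPS, miR-210 was chosen for its higher mean in knockout cells. Its wild-type libraries held 15, 4 and 0 reads, or 8.72, 3.73 and 0 normalized counts, around a mean of 4.15. The knockout libraries held 13, 7 and 7 reads, or 10.0, 8.38 and 8.62 normalized counts, around a mean of 9.0. The knockout libraries lay close together, while the wild-type libraries ran from 0 to a value above the lower knockout libraries, so the groups overlapped. The log2 ratio of 1.12 (95% counting interval 0.14 to 2.10) is a description. It was 0.53 without the wild-type library at 0 and 2.27 without the wild-type library of 8.72, so 1 library decides its size. Scaling to equal mature miRNA sums gave 0.87 and scaling to a median ratio of 0 gave 0.96, both under the limit of 1. The precursor entry mir-210 held 2 reads beyond the arm in wild-type cells with LPS, and its log2 ratio was 0.99.

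In each wild-type group, the library without a read of miR-210 was the one of the smallest size factor. miR-182-5p had 6 and 8 reads in these same libraries, so they were not empty of members. The log2 ratio of knockout to wild type of miR-210 was larger with LPS than without by 1.17, with a counting interval from -0.13 to 2.48 that includes 0. miR-210 was chosen for its high ratio with LPS, which favours a positive difference, so this is a description. Between the tables, miR-210 had a log2 ratio of LPS to no LPS of -0.85 (-1.84 to 0.15) in wild-type and 0.33 (-0.52 to 1.17) in knockout cells. As deposited, none of the members with a finite ratio passed 1 log2 unit with LPS in either genotype, whereas miR-31-5p in knockout cells did so under all 3 scalings. Over all mature miRNAs, 7.88% of 203 were higher and 8.87% lower by over 1 log2 unit in wild-type cells, and 8.12% of 197 were higher and 9.64% lower in knockout cells. The 4 means of miR-210, in the order 4.15 (wild type with LPS), 7.17 (knockout), 7.47 (wild type) and 9.0 (knockout with LPS), did not separate, since libraries overlapped between each pair of neighbours.

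**Figure D4:**
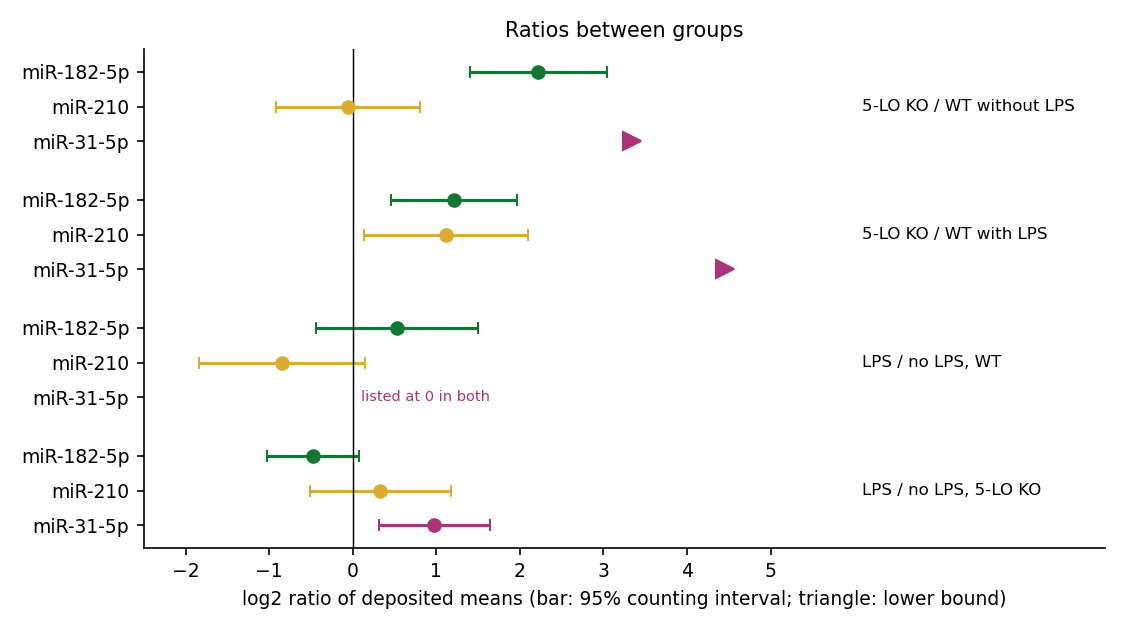
Log2 ratios of the deposited means for miR-182-5p, miR-210 and miR-31-5p, knockout over wild type without and with LPS and LPS over no LPS in each genotype, with 95% counting intervals as bars and lower bounds as triangles. Without LPS miR-182-5p is at 2.22 and miR-210 at -0.06. The bounds of miR-31-5p, from a limit of 3 wild-type reads, are 3.35 and 4.46 without and with LPS.

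miRNAs that have been described as raised in hypoxia were counted beside miR-210. Of 14 names chosen for this (miR-23, miR-24, miR-26, miR-27, miR-103, miR-107 and miR-181 arms), 13 were listed. Without LPS none was higher and 1, miR-23b-3p, was lower by over 1 log2 unit (1.74 to 0.748 normalized counts), against 12.1% higher and 11.2% lower over all 206 mature miRNAs. The median log2 ratio of the 13 was -0.01, against 0.10 over all. With LPS none passed 1 log2 unit in either direction, against 11.1% higher and 7.89% lower over all 190, and the median was 0.16 against 0.10. With 13 miRNAs these counts are near the background, and nothing is read from them.

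Of 8 epithelial marker miRNAs 2 were listed, miR-200c-3p and miR-203a, and their summed means in wild-type and knockout cells were 4.30 and 1.20 normalized counts without LPS and 1.39 and 2.85 with LPS. miR-203a was lower in knockout cells without LPS (3.11 to 1.20, log2 -1.37) and higher with LPS (0.388 to 2.85, log2 2.88), and miR-200c-3p went from 1.19 to 0 and from 1.00 to 0. miR-200a-3p, miR-200b-3p, miR-141-3p and miR-205-5p were not listed. Of the 3 neuronal markers, miR-124-3p was not listed. miR-9-5p had means of 16.2 in wild-type and 42.3 in knockout cells without LPS (log2 1.38) and of 19.7 and 21.2 with LPS (log2 0.11), and miR-9-3p was at 0 in both knockout groups. Of the 2 endothelial markers only miR-126-5p was listed, at 1.24 in wild-type and 0.513 in knockout cells with LPS (log2 -1.28). The part of these markers in the differences of the members was not tested.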

How the data were processed

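The authors made libraries with the Lexogen small RNA kit, sequenced them on a NextSeq500, annotated the reads with the web tool omiRas (build hg19 per the labels) and deposited 2 tables, without and with LPS. The deposited signal is the mean of normalized counts over the 3 libraries of a genotype. The sources used here do not state the aligner or the scaling. Columns of the authors’ own comparison (fold change, p-value and FDR) were not used. Because the tables hold means and not single libraries, no count model was fitted.

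Size factors were found as the 3 steps whose whole multiples give every mean within the rounding of its 6 digits. This held for 100% of the distinct means up to 10 in each group, with exactly 1 solution each, and for 0% to 1.49% of the same means moved off their printed value. Larger means test the steps less: off their printed value, 23.5% to 47.9% of those from 10 to 20 and 36.8% to 90.9% of those from 20 to 25 still had a solution. The share with exactly 1 was 100% (10 to 20) in knockout cells with LPS and 77.3% (20 to 25) in knockout cells without LPS. These are the ranges of the members with means above 10. In wild-type cells with LPS the share was 0% in both ranges, where no member lies. On simulated tables every unique recovery up to a mean of 25 was right in the 4 groups (100%). Reads were simulated with counting error alone, without further variation between libraries. Of the changed RNAs simulated, the counting intervals held the true change in 100% of 25 (without LPS) and 93.3% of 30 (with LPS). This does not test the intervals for libraries that vary more.

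Ratios are ratios of deposited means without a pseudocount. Counting errors follow from the expected reads of each library (delta method), except that exact conditional intervals are given where a group had up to 3 reads. Library values rest on recovered reads and carry no replicate number. The labels do not say that libraries of a group came from separate cultures. The study describes its sequencing results as representative of 3 independent experiments but ties no library to one. The permutation p-values compare library values, whose differences may be technical. Any complete separation of 3 against 3 gives 0.1, whatever the spread. Positions come from GENCODE lifted to GRCh37 and count from 1.

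The members and lists were chosen with earlier results of these data known. The naming rule covered every listed arm and precursor of the members, miRNAs that share bases 2 to 7, the hypoxia list, cell type markers and miRNAs of similar pattern. The last part named none, since no member had a mean of at least 10 in all 4 groups. The miRNAs absent in one genotype were picked after their values were seen. Alternatives were 3 scalings, pseudocounts of 0.1, 1 and 10, a minimum mean of 10 and leaving out each library. Precursor entries, a background of means from 3 to 30 and leaving out libraries in the comparisons of LPS with no LPS were chosen after seeing the data. Calculations used scipy 1.17.1, pandas 2.3.3 and numpy 2.4.6 under Python 3.11.15, and plots matplotlib 3.10.9.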

Additional observations from a re-analysis of the deposited data

How the results depend on the processing

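No paired analysis was possible because the deposited columns are means that carry no replicate number. The 3 scalings took log2 shifts of 0.15 to 0.17 out of the comparison of genotypes without LPS and 0.07 to 0.24 out of that with LPS, and no ratio of miR-182-5p or miR-210 left its counting interval under them. Between the tables, the ratio of LPS to no LPS of miR-31-5p in knockout cells passed 1 under all 3 scalings, at 1.01 to 1.25, from 0.97. A pseudocount of 10, above most of these means, moved miR-182-5p to 1.13 without LPS and to 0.62 with LPS, and miR-210 with LPS to 0.42 (0.96 for a pseudocount of 1), the values with LPS being under 1. For miR-31-5p, at 0 in wild-type cells, a ratio with a pseudocount is set by that pseudocount and is no bound. It was 0.98 without and 1.54 with LPS for a pseudocount of 10, and 6.61 and 7.58 for 0.1, against lower bounds of 3.35 and 4.46 from the limit of 3 reads. A minimum mean of 10 removed every member from the comparisons of genotypes.

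With single libraries left out, the knockout ratio of miR-182-5p ran from 1.74 to 2.57 without LPS and from 0.84 to 1.89 with LPS, and the difference of these effects from -1.38 to -0.33. For miR-210 the ranges were -0.89 to 0.58, 0.53 to 2.27 and 0.54 to 2.33, and for the bounds of miR-31-5p 2.55 to 3.71 and 3.46 to 4.58 (miR-31-3p with LPS 0.54 to 2.12). The ratio of LPS to no LPS ran from -0.15 to 0.90 (miR-182-5p) and -2.0 to -0.21 (miR-210) in wild-type cells, and from -0.73 to 0.01, -0.06 to 1.16 and 0.61 to 1.77 (miR-31-5p) in knockout cells.

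Counts of mature miRNAs past 1 log2 unit depended on low values. The 25 higher and 23 lower without LPS became 68 and 59 with a pseudocount of 0.1, 3 and 2 with 10, 5 and 2 at a minimum mean of 10, and 9 and 5 among means averaging 3 to 30. The 21 higher and 15 lower with LPS became 47 and 58, 3 and 3, 3 and 3, and 6 and 3. Equal mature miRNA sums gave 13 higher and 25 lower with LPS, and a pseudocount of 1 gave 27 lower. A minimum mean counts fewer miRNAs by its construction, and other causes were not tested. The alternatives with a replicate block, edgeR and DESeq2 were not run, since the tables hold means. Without the 1 library that held its reads, miR-183-5p gave no ratio.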
